A study of Mus musculus with 48 samples.

Results

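Abca1, Abcg1, Abcg5 and Abcg8, the ATP-binding cassette (ABC) transporters that export sterols from cells, were followed as mRNA through 48 mouse livers. The genes were chosen by name as sterol exporters regulated by the liver X receptors, and each was found by its Ensembl identifier, giving 4 of the 55416 genes counted in every liver. The livers came from a pair of whole-body mouse lines with altered Nr1h3, the gene of liver X receptor α (LXRα), and all animals had eaten a western diet for 8 weeks, starting at 8 weeks of age. DN:WT, DN:HET and DN:HOM were male wild-type, heterozygous and homozygous mice of a CRISPR-Cas9 knock-in line on C57BL/6J that carries a dominant-negative LXRα, in which arginine replaces a tryptophan of helix 12 of the ligand-binding domain. KO:WT, KO:HET and KO:HOM were wild-type, heterozygous and homozygous mice of an LXRα knockout line backcrossed to C57BL/6, described as a repeat of the knock-in experiment without the sex being named again. Each group held 8 livers, 1 per animal. The lines were kept at different institutions, so line and site cannot be told apart wherever one line is set against the other.

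LXRα and its paralogue LXRβ form heterodimers with the retinoid X receptors, bind oxysterols made from cholesterol, and turn on genes that move cholesterol out of cells. Without an activating ligand the receptors hold co-repressors at the same genes. Abca1 loads cholesterol and phospholipid onto lipid-poor apolipoprotein A-I, the first step in forming high-density lipoprotein (HDL). Abcg1 is a half-transporter that works as a dimer, is prominent in macrophages, and supports efflux to formed HDL. Abcg5 and Abcg8 are half-transporters that act only as a pair, at the canalicular membrane of the hepatocyte, where they secrete cholesterol and plant sterols into bile.

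On the GRCm39 build, with gene models of GENCODE release M39, Abca1 (ENSMUSG00000015243) lay on the minus strand at chr4:53030787-53159900. Abcg1 (ENSMUSG00000024030) lay on the plus strand at chr17:31276649-31336969. Abcg5 (ENSMUSG00000040505, minus strand, chr17:84964851-84990494) and Abcg8 (ENSMUSG00000024254, plus strand, chr17:84983730-85007765) stood head to head. Their annotated spans overlapped by 6765 bases on opposite strands, exons included, so counts that respect strand are needed to separate them. The canonical transcript of Abcg5 starts at position 84990439 and that of Abcg8 at 84990452, with 12 bases between them. Those 12 bases are printed in capitals below, on the plus strand at chr17:84990410-84990481, with 30 bases of the first exon of each gene on either side in lower case, because this stretch is all that separates the canonical starts of the pair. The counts used here are per gene and sum 5 annotated transcripts of Abcg5 and 4 of Abcg8, some of which start elsewhere.
Abcg5-Abcg8: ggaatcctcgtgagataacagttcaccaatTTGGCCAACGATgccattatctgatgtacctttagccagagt

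The upstream sequences of Abca1 and Abcg1 are shown for contrast with that shared stretch. The 200 bases before the canonical start of Abca1, chr4:53159901-53160100 read on the minus strand, were 61.5% G or C. The 200 bases before that of Abcg1, chr17:31276461-31276660 on the plus strand, were 70.0% G or C. Capitals mark letters of the motifs searched.
Abca1: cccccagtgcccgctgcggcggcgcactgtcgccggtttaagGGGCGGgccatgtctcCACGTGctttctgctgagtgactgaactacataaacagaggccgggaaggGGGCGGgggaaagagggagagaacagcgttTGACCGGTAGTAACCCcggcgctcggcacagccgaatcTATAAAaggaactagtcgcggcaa
Abcg1: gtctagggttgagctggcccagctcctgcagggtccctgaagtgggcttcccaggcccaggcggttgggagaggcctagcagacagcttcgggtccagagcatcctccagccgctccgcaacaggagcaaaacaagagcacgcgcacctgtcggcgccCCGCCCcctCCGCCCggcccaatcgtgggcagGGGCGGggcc

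The motifs were searched on both strands of windows reaching from 250 bases before to 50 bases after each canonical start, and in the same windows of all 21770 protein-coding genes. The DR4 motif, the direct repeat that LXR heterodimers are known to bind, was written as AGGTCA, any 4 bases and AGGTCA again, and was allowed up to 3 mismatches over its 12 fixed letters. Abca1 held 1 such match, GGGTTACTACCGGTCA on the strand opposite to the gene, with 3 mismatches, from 62 to 47 bases before the start. None of the other windows of the 4 genes held one, and 20.9% of all windows did (2.85% with up to 2 mismatches). TATAAA lay 24 to 19 bases before the Abca1 start and 84 to 79 bases before that of Abcg5, and 13.2% of all windows held it. GGGCGG occurred in the Abca1 and Abcg1 windows and in 42.5% of all windows. GATAAG occurred once in the Abcg5 window, at bases 84990485 to 84990490, a place that the Abcg8 window also covers. It was found in 7.15% of all windows. CACGTG, present in the Abca1 window, was found in 7.81%.

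Between 5332897 and 16961379 reads per liver fell on genes (median 15879972), and 2 livers, KO:HET 3 and KO:HOM 17, had under 10000000. In any one liver Abca1 had 1319 to 5397 reads, Abcg5 768 to 7080 and Abcg8 587 to 5913. Abcg1 had only 24 to 707, so that its values carry the most counting error. The libraries labelled DN:WT 10 and DN:HOM 12 stood apart from their groups. The first lay near the livers of DN:HOM and the second near those of DN:WT. Source values behind a panel of bile acid genes in the study lack both, judged by matching them to the counts, with no reason given, although the study describes complete groups for the sequencing. The fit described here uses the remaining 46 livers, and values over all 48 are given beside it. Nr1h3 was used to check the labels. In the knockout line it averaged 93.6 ± 9.10 CPM, the counts of a gene relative to the scaled library total (SD, n = 8) in KO:WT, 59.0 ± 5.93 (n = 8) in KO:HET and 26.9 ± 2.01 (n = 8) in KO:HOM. The knock-in allele changes a codon and keeps the transcript, and Nr1h3 was 91.2 ± 4.84 CPM (n = 7) in DN:WT and 73.1 ± 3.52 (n = 7) in DN:HOM. The 2 libraries left out went against their labels on this gene too. DN:WT 10 had 71.3 CPM of Nr1h3, inside the DN:HOM range of 68.8 to 77.3, and DN:HOM 12 had 86.9 CPM, inside the DN:WT range of 82.1 to 96.1. Whether their labels were exchanged was not decided. Throughout, the CPM of these 2 libraries was scaled together with all 48 livers and that of the others over the 46. Their places relative to the ranges of fitted livers therefore compare values from different scalings. CPM here is scaled by the trimmed mean of M-values (TMM), and changes are log2 fold changes from an edgeR quasi-likelihood fit over all 15711 genes that passed the low-count filter, with p-values adjusted by the Benjamini-Hochberg method over all of them and a threshold of 0.05. All 4 exporters passed the filter.

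Per kilobase of exon, the scale on which different genes can be compared, the biliary pair was the most abundant in wild-type livers. The level in DN:WT was 115 ± 12.7 CPM per kilobase for Abcg5, 83.3 ± 14.2 for Abcg8, 19.6 ± 2.25 for Abca1 and 0.952 ± 0.128 for Abcg1 (SD, n = 7 livers each). In DN:HOM, Abcg5 stood at 16.2 ± 3.71 CPM per kilobase and Abcg8 at 12.2 ± 2.48, next to Abca1 at 16.3 ± 1.85 (SD, n = 7). The ranges of Abcg5 and Abca1 in DN:HOM overlapped on this scale, from 12.4 to 23.1 and from 13.1 to 19.1 CPM per kilobase. In KO:HOM the order of the wild types was kept, with Abcg5 at 43.9 ± 10.9, Abcg8 at 39.6 ± 8.58, Abca1 at 24.3 ± 1.90 and Abcg1 at 2.77 ± 0.778 CPM per kilobase (SD, n = 8).

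**Figure D1:**
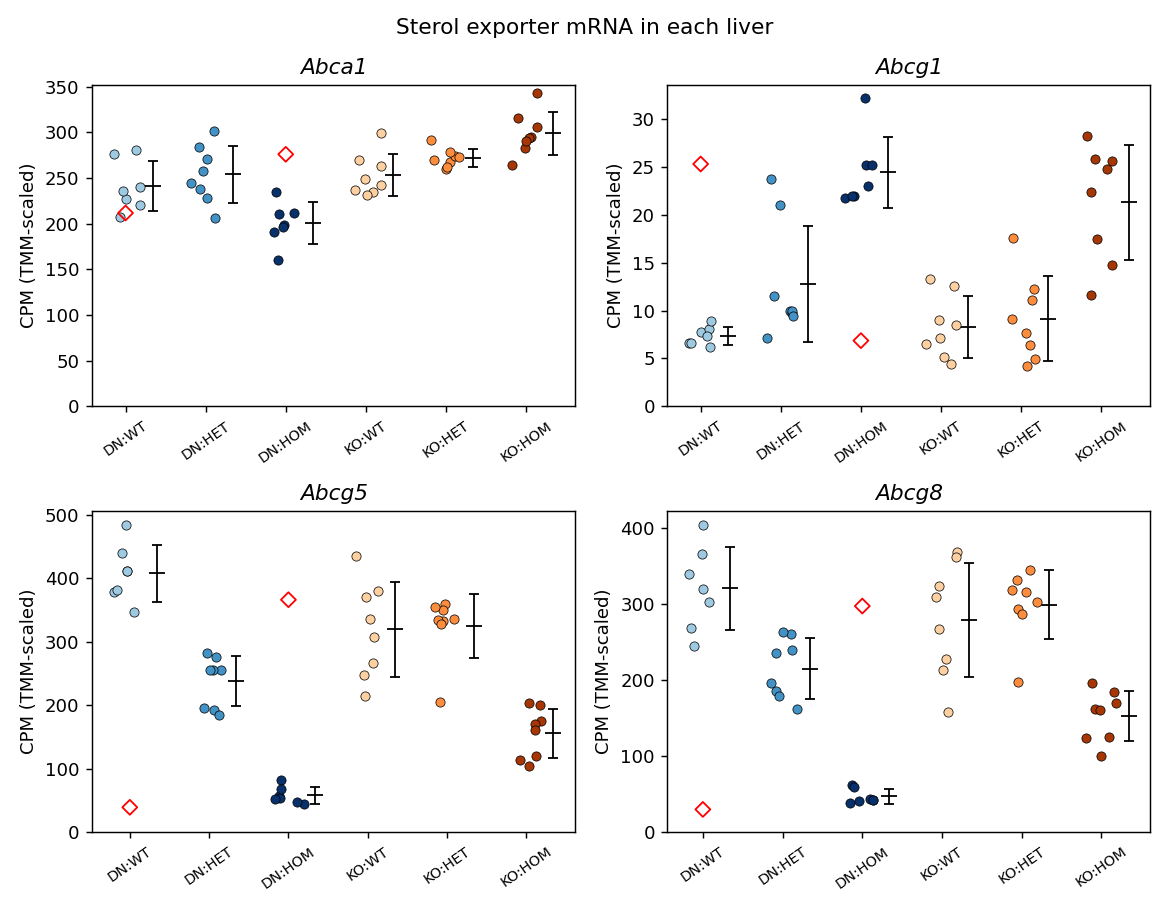
TMM-scaled CPM (y axis, from 0) of the 4 genes in each liver by group (x axis). Filled points are livers of the fit, bars their mean ± SD, and red diamonds the 2 livers left out. Among the filled points, Abcg5 and Abcg8 in DN:HOM lie below every other group, while Abcg1 in DN:HOM lies above all fitted livers of DN:WT, KO:WT and KO:HET.

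Abcg5 fell in homozygous livers of both lines, and further in the knock-in line. Its CPM ran from 346 through a median of 411 to 484 in DN:WT, from 185 through 255 to 282 in DN:HET, and from 44.0 through 53.7 to 82.0 in DN:HOM. These ranges of the knock-in line did not touch one another. The share of all genes with such separate ranges was not counted, here or for the separations of groups given below. In DN:HOM the fitted log2 fold change was -2.82 ± 0.16 (SE, adjusted p = 1.91e-18), a level 7.08-fold lower than in DN:WT. Against DN:HET, DN:HOM was lower by a log2 fold change of -2.04 ± 0.15 (adjusted p = 7.93e-15). With all 48 livers the change from DN:WT was -1.92 (adjusted p = 3.65e-05). The library labelled DN:WT 10 had 38.9 CPM, just under the range of the fitted DN:HOM livers. The library labelled DN:HOM 12 had 366 CPM, inside the range of the fitted DN:WT livers.

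In the knockout line Abcg5 ran from 214 through a median of 321 to 435 CPM in KO:WT, from 205 through 334 to 359 in KO:HET, and from 104.15 through 165 to 204 in KO:HOM. KO:HOM lay below every liver of KO:WT and KO:HET, while KO:HET lay within the span of KO:WT save for 1 liver, KO:HET 15, just under it. The log2 fold change was -1.04 ± 0.14 in KO:HOM (adjusted p = 1.8e-06), 2.05-fold lower, and 0.02 ± 0.14 in KO:HET (adjusted p = 0.988). The effect of the homozygous knock-in exceeded that of the homozygous knockout by a log2 difference of -1.79 ± 0.21 (adjusted p = 5.7e-09). That difference was -0.89 (adjusted p = 0.191) with all 48 livers, -1.62 (adjusted p = 0.000405) with DN:WT 10 alone added back and -1.05 (adjusted p = 0.0402) with DN:HOM 12 alone added back.

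Abcg8 moved with its partner. CPM ran from 245 through a median of 319 to 404 in DN:WT, from 161 through 215 to 264 in DN:HET, and from 37.9 through 42.0 to 62.2 in DN:HOM. DN:HOM was again apart from the other groups of its line, and DN:HET overlapped DN:WT. The log2 fold change in DN:HOM was -2.78 ± 0.17 (adjusted p = 8.73e-18), 6.85-fold lower than DN:WT, and -1.88 (adjusted p = 4.75e-05) with all 48 livers. DN:HOM was below DN:HET by a log2 fold change of -2.20 ± 0.16 (adjusted p = 3.5e-15). In the knockout line the range was 158 to 368 CPM in KO:WT (median 288), 198 to 345 in KO:HET (median 309) and 100.1 to 196 in KO:HOM (median 161). KO:HOM overlapped KO:WT and not KO:HET. Its log2 fold change against KO:WT was -0.87 ± 0.15 (adjusted p = 3.98e-05), 1.83-fold lower, and -0.86 with all 48 livers, where it no longer passed (adjusted p = 0.0715). KO:HET differed from KO:WT by 0.10 ± 0.15 (adjusted p = 0.938). The homozygous effects differed by -1.91 ± 0.22 on the log2 scale (adjusted p = 3.17e-09), and by -1.01 (adjusted p = 0.14) with all 48 livers.

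In livers with 1 mutant allele, the pair fell in the knock-in line on the 46 livers alone. All 8 DN:HET livers had less Abcg5 than any of the 7 fitted DN:WT livers, with a log2 fold change of -0.78 ± 0.15 (adjusted p = 0.00439), 1.72-fold lower. For Abcg8 the change was -0.58 ± 0.15 (adjusted p = 0.0296), 1.49-fold lower. Two-sided exact permutation tests of the mean log2 CPM of DN:HET against DN:WT gave p = 0.000155 for Abcg5, the smallest that 8 against 7 livers allow, and p = 0.0014 for Abcg8 (0.00124 and 0.0028 after adjustment over the 16 tests of this kind). Both calls depended on which libraries entered. With all 48 livers the log2 fold changes were -0.60 (adjusted p = 0.807) and -0.40 (adjusted p = 0.981), and the permutation tests gave adjusted p = 0.631 and 0.897. Without DN:HET 4 and 22, a choice made after their values were seen, the log2 fold changes were -0.69 (adjusted p = 0.178) and -0.50 (adjusted p = 0.805). That fit called 2 genes in all, and the DN:HET livers it kept still had less Abcg5 than any fitted DN:WT liver. The Abcg8 call was also lost on leaving out any 1 of DN:WT 2, 5, 7, 13 or 28 or of DN:HET 4 or 22, with adjusted p of 0.0509 to 0.145. The heterozygous effects of the lines differed by -0.80 ± 0.20 for Abcg5 and -0.68 ± 0.21 for Abcg8, neither past the threshold (adjusted p = 0.984 for each). The 95% intervals of these differences, not adjusted for the number of genes, were -1.20 to -0.41 and -1.09 to -0.27. The contrast of heterozygous effects was added after the values were seen, and it called 1 of 15711 genes (0.00636%).

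Hepatocyte marker mRNA was followed in the same groups. The summed level of 10 hepatocyte markers was 66646 to 83428 CPM in DN:WT, 48648 to 81101 in DN:HET and 36869 to 49309 in DN:HOM, with 85927 to 107529 in KO:WT and 64493 to 89415 in KO:HOM. The lowest DN:HET sums were 48648 and 51941 CPM in livers 22 and 4, and the next was 62936 in liver 20. The libraries labelled DN:WT 10 and DN:HOM 12 had sums of 46569 and 87539 CPM. In DN:HET none of the 10 markers was called, with a median log2 fold change of -0.09. Of these 10 markers, 8 fell and none rose in DN:HOM, with a median log2 fold change of -0.85, and 4 fell in KO:HOM (1 with all 48 livers), with a median of -0.32, while 59.1% of all genes were called in DN:HOM and 19.4% in KO:HOM. In whole liver, fewer cells of a type and less RNA per cell cannot be told apart, and the part of the hepatocyte markers in the levels of Abcg5 and Abcg8 was not tested.

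The balance within the pair was followed as a ratio of their levels. The ratio of Abcg8 to Abcg5 CPM was 0.785 ± 0.0812 in DN:WT, 0.908 ± 0.0772 in DN:HET and 0.820 ± 0.0607 in DN:HOM (SD, n = 7, 8 and 7). It was 0.866 ± 0.0760 in KO:WT, 0.923 ± 0.0374 in KO:HET and 0.987 ± 0.0533 in KO:HOM (SD, n = 8 each). On the log2 scale KO:HOM exceeded KO:WT by 0.19 ± 0.05 (SE, two-sided exact permutation p = 0.00202, 0.00808 after adjustment over 4 tests). DN:HET exceeded DN:WT by 0.21 ± 0.07 (exact permutation p = 0.0103, adjusted 0.0205). For DN:HOM the difference of 0.07 ± 0.07 did not pass (exact permutation p = 0.382, adjusted 0.382), nor did 0.10 ± 0.05 for KO:HET (exact permutation p = 0.0679, adjusted 0.0905).

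**Figure D2:**
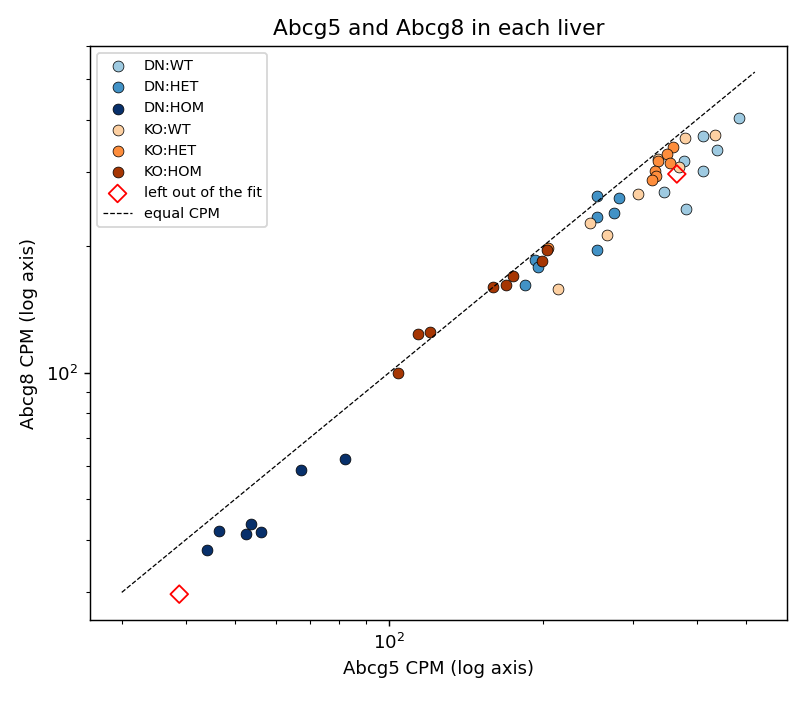
Abcg5 CPM (x, log axis) against Abcg8 CPM (y, log axis), 1 point per liver coloured by group, with a dashed line at equal CPM. The fitted DN:HOM livers lie at the lower left, with KO:HOM livers above every one of them and overlapping DN:HET for both genes. The red diamonds of DN:WT 10 (38.9 and 29.7 CPM) and DN:HOM 12 (366 and 297 CPM) lie at the opposite end from their labelled groups.

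Abca1 moved in opposite directions in the homozygous livers of the lines, and by small amounts. CPM ran from 207 through a median of 236 to 281 in DN:WT, from 207 through 251 to 302 in DN:HET and from 161 through 199 to 234 in DN:HOM. In the knockout line it ran from 231 through 245 to 300 in KO:WT, from 260 through 271 to 292 in KO:HET and from 264 through 294 to 343 in KO:HOM. Each homozygous group overlapped its wild type, whereas DN:HOM lay below every liver of KO:HET and KO:HOM. The log2 fold change was -0.27 ± 0.08 in DN:HOM (adjusted p = 0.0027), 1.20-fold lower, and 0.24 ± 0.07 in KO:HOM (adjusted p = 0.0135), 1.18-fold higher. With all 48 livers these were -0.19 (adjusted p = 0.0477) and 0.25 (adjusted p = 0.031). The homozygous effects differed by -0.50 ± 0.10 on the log2 scale (adjusted p = 0.000176), and by -0.43 (adjusted p = 0.0135) with all 48 livers. DN:HET and KO:HET differed from their wild types by 0.08 ± 0.07 (adjusted p = 0.745) and 0.10 ± 0.07 (adjusted p = 0.832).

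The sign of the Abca1 change in DN:HOM rests on how the libraries are scaled. TMM put the median log2 fold change of all genes in DN:HOM against DN:WT at -0.01, and scaling by library size alone put it at 0.42. Under library size alone, Abca1 in DN:HOM was 0.16 above DN:WT (adjusted p = 0.0415), which is 0.25 below the median gene, the same distance as with TMM. Under that scaling the difference between homozygous effects was -0.19 (adjusted p = 0.112). Abcg1, Abcg5 and Abcg8 kept their direction in DN:HOM and KO:HOM, with log2 fold changes of 2.17, -2.40 and -2.35 in DN:HOM and 1.49, -0.92 and -0.75 in KO:HOM. Abca1 in KO:HOM kept its direction too, at 0.36 (adjusted p = 0.000162).

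Abcg1 rose in homozygous livers of both lines from a low level. CPM ran from 6.16 through a median of 7.30 to 8.93 in DN:WT, from 7.12 through 9.95 to 23.7 in DN:HET and from 21.8 through 22.97 to 32.2 in DN:HOM. DN:HOM did not overlap DN:WT, and 2 livers of DN:HET, 4 and 22, reached 23.7 and 21.04 CPM while the other 6 stayed at or below 11.6. In the knockout line the range was 4.41 to 13.3 in KO:WT (median 7.78), 4.20 to 17.6 in KO:HET (median 8.38) and 11.6 to 28.2 in KO:HOM (median 23.6). The log2 fold change was 1.74 ± 0.26 in DN:HOM (adjusted p = 1.84e-07), 3.33-fold higher, and 1.37 ± 0.24 in KO:HOM (adjusted p = 5.62e-05), 2.58-fold higher. With all 48 livers these were 1.20 (adjusted p = 0.00117) and 1.37 (adjusted p = 0.00144). The homozygous effects differed by 0.37 ± 0.35 (adjusted p = 0.442, 95% interval -0.31 to 1.05), so that a difference in either direction is compatible with these livers. DN:HET differed from DN:WT by 0.81 ± 0.25 (adjusted p = 0.0745). That value was 0.39 (adjusted p = 1) without DN:HET 4 and 22. It passed with DESeq2 (0.82, adjusted p = 0.0337), with the knock-in line fitted alone (0.82, adjusted p = 0.048), and without DN:HET 8 (0.90, adjusted p = 0.0309) or DN:HET 20 (0.86, adjusted p = 0.0477). A two-sided exact permutation test of mean log2 CPM also passed for DN:HET, with a difference of 0.68 (exact permutation p = 0.00482, 0.00771 after adjustment over 16 tests), but not with all 48 livers (0.47, adjusted permutation p = 0.257). KO:HET differed from KO:WT by 0.17 ± 0.24 (adjusted p = 0.942).

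Pan-macrophage marker mRNA was also higher in homozygous livers of both lines, while markers of other cells that are not hepatocytes moved in different directions. The summed level of 9 pan-macrophage markers was 162 to 293 CPM in DN:WT, 186 to 1211 in DN:HET, 1025 to 1630 in DN:HOM, 123 to 317 in KO:WT, 118 to 467 in KO:HET and 362 to 1341 in KO:HOM. In DN:HET 4 and 22, the livers with high Abcg1, it was 1137 and 1211 CPM, with Kupffer marker sums of 590 and 629 CPM, and in the library labelled DN:WT 10, with 25.3 CPM of Abcg1, it was 1535. The library labelled DN:HOM 12, with 6.85 CPM of Abcg1, had a sum of 160. Of the 9 markers, 8 rose and none fell in DN:HOM and likewise in KO:HOM, with Lyz2, the lysozyme of myeloid cells, at a log2 fold change of 4.28 ± 0.57 in DN:HOM and 2.57 ± 0.50 in KO:HOM. Of 8 markers of recruited, monocyte-derived macrophages, 7 rose in DN:HOM and 7 in KO:HOM (7 and 6 with all 48 livers). Gpnmb, a glycoprotein of lipid-laden macrophages, went from 1.01 ± 0.743 CPM in DN:WT (n = 7) to 186 ± 52.6 in DN:HOM (SD, n = 7). The 7 markers of resident Kupffer cells went the other way in DN:HOM, where all 7 fell and their sum was 2.05 to 4.16 CPM against 147 to 274 in DN:WT. Clec4f, the Kupffer cell lectin, was at 0.192 to 0.637 CPM there, and Timd4, a phosphatidylserine receptor, at 0 to 0.297. In KO:HOM 5 of the 7 fell and their sum was 24.4 to 72.1 CPM against 85.1 to 320.3 in KO:WT. All 7 cholangiocyte markers rose in DN:HOM, with a sum of 77.1 to 96.8 CPM against 19.4 to 30.5 in DN:WT and 96.7 in the library labelled DN:WT 10, and 1 of the 7 rose in KO:HOM (6 and 0 with all 48 livers). Of 7 stellate cell markers 6 rose in DN:HOM, with a sum of 474 to 644 CPM against 106 to 148 in DN:WT, and 3 rose in KO:HOM (5 and 1 with all 48 livers). All 3 neutrophil markers tested, of 5 listed, rose in both (2 and 1 with all 48 livers), and of 6 T cell markers 4 rose in DN:HOM and 6 in KO:HOM (1 and 6 with all 48 livers). Of 7 endothelial markers 5 fell and 1 rose in DN:HOM and 1 fell and 1 rose in KO:HOM, and of 4 B cell markers 1 fell in DN:HOM (none with all 48 livers) and none was called in KO:HOM. In DN:HET, beside 2.30% of all genes called, 5 of 6 T cell markers rose (median log2 fold change 2.03), with 4 of 8 recruited and 2 of 9 pan-macrophage markers, 1 of 7 Kupffer markers and 1 of 3 neutrophil markers. The counts with all 48 livers were 2 for the T cell list and 0 for the other lists. The summed level of the T cell markers was 25.1 and 27.1 CPM in DN:HET 4 and 22, against 2.15 to 4.11 in DN:WT. These marker counts also stand beside 59.1% of all genes called in DN:HOM and 19.4% in KO:HOM. The part of these cells in the level of Abcg1 was not tested.

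**Figure D3:**
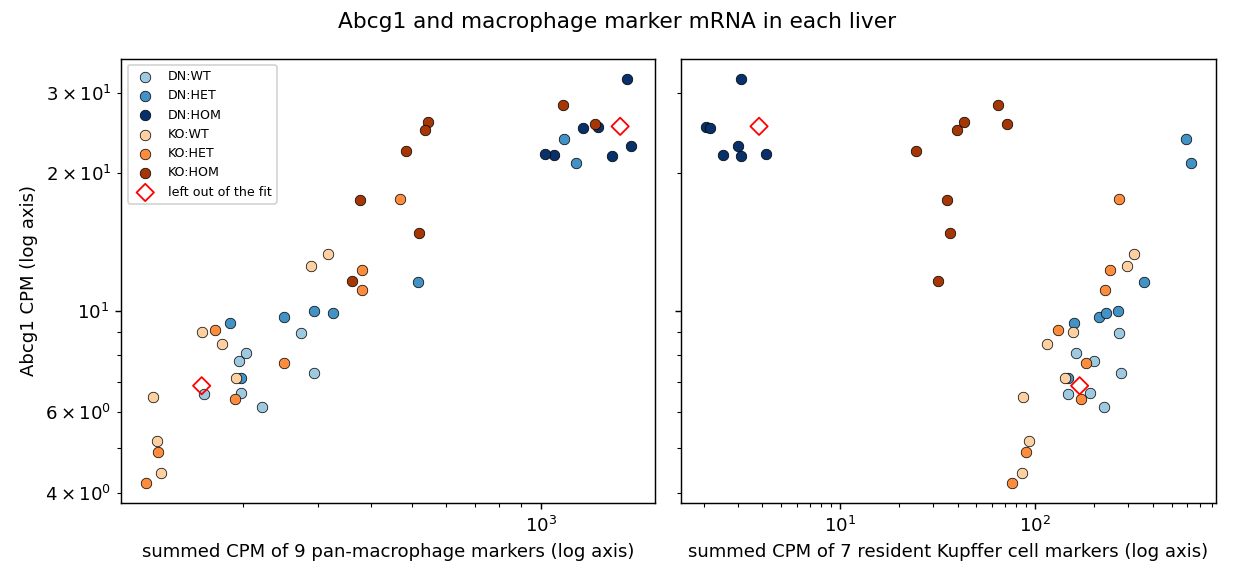
Abcg1 CPM (y, log axis) in each liver against the summed CPM of 9 pan-macrophage markers (left) and of 7 resident Kupffer cell markers (right), both on log x axes and coloured by group, with the 2 livers left out of the fit as red diamonds. Livers with pan-macrophage sums above 1000 CPM all have over 20 CPM of Abcg1, and the fitted DN:HOM livers combine high Abcg1 with Kupffer marker sums below 5 CPM.

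Read against all genes, these counts were as follows. In DN:HOM against DN:WT, 59.1% of the 15711 genes tested passed the threshold (4579 higher and 4713 lower), so that the 4 of 4 exporters called there, 1 higher and 3 lower, stand in a comparison where most genes were called. The split of calls became 9283 higher and 1738 lower with library size alone. In KO:HOM against KO:WT 19.4% were called, 1811 higher and 1237 lower, and all 4 exporters, 2 higher and 2 lower. That split became 2622 and 437 with library size alone and 1933 and 847 with upper-quartile scaling. In DN:HET against DN:WT 2.30% were called, 350 higher and 11 lower, and 2 of 4 exporters, both lower. Those 361 calls ranged from 21 to 629 on leaving out 1 liver and were 39 with all 48 livers, where no exporter was called. In KO:HET against KO:WT 0.0191% were called, which is 3 genes, and no exporter by edgeR or DESeq2, and the 95% interval of the edgeR change included 0 for all 4. The difference between homozygous effects was called for 34.7% of genes, with 2586 more positive and 2870 more negative (5929 and 1336 with library size alone), and for Abca1, Abcg5 and Abcg8. Abcg8 in KO:HOM and the differences of Abcg5 and Abcg8 did not pass with all 48 livers, as given above.

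The homozygous livers also differed from the heterozygous ones of the same line. DN:HOM against DN:HET called 53.9% of genes (4094 higher and 4374 lower, 8620 and 1682 with library size alone) and all 4 exporters. Abca1 was lower by -0.34 ± 0.07 (adjusted p = 0.000144), a sign that turned to 0.03 (adjusted p = 0.704) with library size alone, and Abcg1 was higher by 0.93 ± 0.24 (adjusted p = 0.00101). KO:HOM against KO:HET called 10.6% (1138 and 525, against 1731 and 219 with library size alone) and 3 of 4 exporters. Abcg1 was higher by 1.20 ± 0.24 (adjusted p = 0.00127), Abcg5 lower by -1.06 ± 0.14 (adjusted p = 4.24e-06) and Abcg8 lower by -0.97 ± 0.15 (adjusted p = 4.35e-05), of which the last did not pass with all 48 livers (adjusted p = 0.0692). The wild types of the lines differed in 12% of genes (871 higher and 1016 lower in DN:WT, 1228 and 750 with library size alone) and in no exporter by edgeR or DESeq2, though the 95% interval of the edgeR change excluded 0 for 1 of the 4, Abcg5. Over all genes, 3912 of 15711 had an unadjusted edgeR p below 0.05 in this comparison. Abcg5 was 0.35 ± 0.15 higher in DN:WT (95% interval 0.07 to 0.63, adjusted p = 0.112, and 0.41 with adjusted p = 0.0412 for library size alone), and Abcg8 0.20 ± 0.15 higher (adjusted p = 0.435). These contrasts share their groups with those above and are not independent of them.

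**Figure D4:**
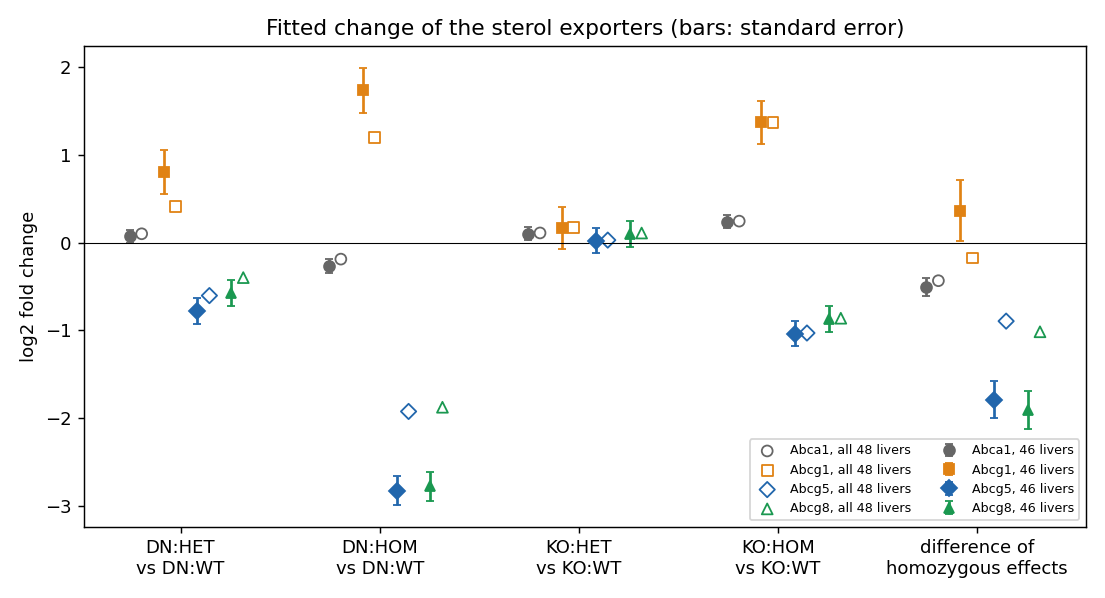
Fitted log2 fold change (y axis) of the 4 genes in 5 comparisons (x axis). Filled symbols with bars are the 46-liver fit ± standard error and open symbols the fit to all 48 livers. Abcg5 and Abcg8 lie near -2.8 in DN:HOM and near -1 in KO:HOM, and in DN:HOM against DN:WT the open symbols of all 4 genes lie nearer to 0 than the filled ones.

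Ordered by mean CPM, Abcg5 and Abcg8 shared an order of the 6 groups that Abcg1 and Abca1 did not. Abcg5 ran from DN:WT (407 ± 45.2 CPM, SD, n = 7) through KO:HET (325 ± 49.8, n = 8), KO:WT (319.5 ± 74.8, n = 8), DN:HET (237 ± 39.4, n = 8) and KO:HOM (156 ± 38.6, n = 8) to DN:HOM (57.5 ± 13.2, n = 7). Every neighbouring pair in that order overlapped save the last, since DN:HOM lay apart from KO:HOM. Abcg8 took the same order, from 321 ± 54.8 to 46.8 ± 9.54 CPM. Abcg1 ran from DN:HOM (24.5 ± 3.70 CPM) and KO:HOM (21.3 ± 6.00) through DN:HET (12.8 ± 6.07), KO:HET (9.15 ± 4.42) and KO:WT (8.30 ± 3.23) to DN:WT (7.34 ± 0.986), and each neighbour in the order overlapped the next. Abca1 ran from KO:HOM (299 ± 23.3 CPM) through KO:HET (272 ± 10.02), DN:HET (254 ± 31.1), KO:WT (253 ± 23.3) and DN:WT (241 ± 27.6) to DN:HOM (200.45 ± 22.7), again with every neighbouring pair overlapping.

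Within groups, the exporters varied together to different degrees from liver to liver. Deviations from the group mean of log2 CPM were correlated over 46 livers for the 6 pairs of genes, with livers permuted within groups 100000 times and p adjusted over the 6 pairs. Abcg5 and Abcg8 had Pearson's r = 0.932 (permutation p = 1e-05, the smallest these permutations give, adjusted 6e-05) and Spearman's rho = 0.93 (permutation p = 1e-05). Without the 2 livers farthest from the median of Abcg5, r was 0.92, and within the 6 groups it ran from 0.803 in DN:WT to 0.984 in KO:HOM. Abca1 and Abcg8 had r = 0.522 (permutation p = 0.00035, adjusted 0.00105) and rho = 0.515 (permutation p = 0.00108, adjusted 0.00324), with r = 0.512 without 2 livers. Abca1 and Abcg5 had r = 0.406 (permutation p = 0.00558, adjusted 0.0112) and rho = 0.44 (permutation p = 0.00421, adjusted 0.00842), with r = 0.416 without 2 livers. Both relations of Abca1 were negative in KO:HET (r = -0.708 and -0.719) and positive in the other 5 groups, so that they did not hold within every group. In KO:HET, liver 15 had the highest Abca1 (292 CPM) and the lowest Abcg5 (205 CPM) and Abcg8 (198 CPM). The r of that group without liver 15 was not computed. The relation of Abca1 with Abcg5 did not pass when libraries were scaled by size alone (r = 0.303, adjusted permutation p = 0.0768).

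Abcg1 showed no relation to the others that passed. With Abcg5 it had r = -0.242 (permutation p = 0.135, adjusted 0.203) and rho = -0.214 (permutation p = 0.177, adjusted 0.262), and with Abcg8 r = -0.213 (permutation p = 0.188, adjusted 0.225) and rho = -0.194 (permutation p = 0.218, adjusted 0.262). With Abca1 it had r = -0.0287 (permutation p = 0.845, adjusted 0.845) and rho = 0.00216 (permutation p = 0.988, adjusted 0.988). With all 48 livers the relations with Abcg5 and Abcg8 became -0.62 (adjusted permutation p = 0.00162) and -0.61 (adjusted permutation p = 0.00202), which rest on the addition of DN:WT 10 and DN:HOM 12.

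The genes most like each exporter were ranked by Pearson's r of log2 CPM among the 11710 genes with a mean log2 CPM above 1, as a description over 46 livers that share scaling and groups. For Abcg5 the nearest were Abcg8 (r = 0.988), Fabp2 (0.928), Hibadh (0.927), Lap3 (0.926) and Haao (0.925). For Abcg8 they were Abcg5, Hibadh (0.947), Lap3 (0.945), Rgn (0.944) and Haao (0.942). For Abcg1 they were Axl (0.959), Laptm5 (0.956), Cd68 (0.946), Sirpa (0.940) and Cd300a (0.939). For Abca1 they were Cyp4v3 (0.830), F13b (0.828), Tex261 (0.824), Lrp1 (0.822) and F5 (0.820). Abca1 and Abcg1 had r = -0.134 on this measure.

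With group means removed, the likeness of the biliary pair stood out from what followed it. Abcg8 was nearest to Abcg5 at r = 0.932, and the next gene, Slc38a3, was at 0.608, followed by Qprt (0.603), Slc22a18 (0.591) and Ivd (0.573). For Abcg8, Ivd (0.656), Hpd (0.655), Slc7a2 (0.644) and Nr1d1 (0.626) came after Abcg5. For Abcg1 the nearest were Sdc3 (0.910), Axl (0.909), Cyth4 (0.884), Trem6l (0.880) and Laptm5 (0.878). For Abca1 they were Fn1 (0.717), Nr3c1 (0.696), Eprs1 (0.682), Snrnp200 (0.670) and Hnrnpk (0.669).

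Around the exporters, the other members of ABC subfamilies A and G were called about as often as genes at large in DN:HOM. Of 18 such genes 11 passed the low-count filter. In DN:HOM 3 rose and 4 fell, with a median log2 fold change of -0.15 beside -0.01 over all genes, and in KO:HOM 2 rose and 3 fell (2 and 1 with all 48 livers), with a median of -0.16 beside -0.02. These 7 and 5 calls stand beside the 59.1% and 19.4% of all genes called in the same comparisons. Abca5, a lysosomal transporter, rose in DN:HOM by 1.47 ± 0.14 (adjusted p = 3.27e-12), from 7.18 ± 1.14 CPM to 19.9 ± 3.28 (SD, n = 7), and in KO:HOM its value was -0.16 ± 0.13 (adjusted p = 0.444). Abcg2, a half-transporter of urate and many drugs, fell in DN:HOM by 0.62 on the log2 scale (adjusted p = 2.36e-05) and was at 0.19 ± 0.11 in KO:HOM (adjusted p = 0.261). Abcg3, a rodent member of the family, rose in both, by 1.70 ± 0.31 (adjusted p = 9.22e-06) and 1.73 ± 0.30 (adjusted p = 5.29e-05).

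Of 15 genes of lipid acceptors and HDL remodelling, 13 fell and 1 rose in DN:HOM, with a median log2 fold change of -0.90, and 6 fell in KO:HOM (2 with all 48 livers), with a median of -0.22. Among all genes 59.1% were called in DN:HOM and 19.4% in KO:HOM. Apoa1, the main acceptor for Abca1, fell by 0.60 in DN:HOM and by 0.63 in KO:HOM on the log2 scale (adjusted p = 0.000134 and 0.000212). Pltp, which moves phospholipid onto HDL, fell by 1.87 and 1.90 (adjusted p = 4.28e-09 and 6.2e-08). Lpl, the lipase of capillary walls, was the member that rose, by 1.87 ± 0.38 in DN:HOM (adjusted p = 5.24e-05), and its value in KO:HOM was 0.27 ± 0.36 (adjusted p = 0.643). Scarb1, the HDL receptor of hepatocytes, was at -0.13 ± 0.10 in DN:HOM (adjusted p = 0.277).

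Of 11 genes of bile lipid secretion 10 were tested, of which 8 fell and 1 rose in DN:HOM (median -0.70) and 5 fell and 1 rose in KO:HOM (median -0.26), or 1 and 0 with all 48 livers. Over all genes the fit to 46 livers called 59.1% in DN:HOM and 19.4% in KO:HOM. Abcb4, the canalicular phospholipid floppase, was at 428 ± 62.3 CPM in DN:WT and 412 ± 36.3 in DN:HOM (SD, n = 7), a log2 fold change of -0.06 ± 0.12 (adjusted p = 0.689). Abcb11, the bile salt export pump, fell by 0.93 in DN:HOM and by 0.40 in KO:HOM (adjusted p = 1.87e-08 and 0.0112, the second 0.0729 with all 48 livers). Cyp8b1, the sterol 12α-hydroxylase of bile acid synthesis, fell by 2.77 in DN:HOM (adjusted p = 9.8e-10) and was at 0.51 ± 0.29 in KO:HOM (adjusted p = 0.219). Npc2, a carrier of cholesterol in lysosomes that is also secreted into bile, was the gene that rose, by 0.82 ± 0.12 and 0.35 ± 0.12 (adjusted p = 2.64e-07 and 0.0277, the second 0.0757 with all 48 livers).

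Of 16 other LXR targets, 11 fell and 4 rose in DN:HOM (median -1.04), and 6 fell and 3 rose in KO:HOM (median -0.32), or 2 and 3 with all 48 livers. The shares of all genes called were again 59.1% and 19.4%. Pltp, Lpl, Apoe and Apoc1 also stand in the HDL list, Cyp7a1 in the bile list and Nr0b2 among the receptors and co-regulators. Srebf1, the regulator of lipid synthesis, fell by 3.18 in DN:HOM and by 0.71 in KO:HOM (adjusted p = 1.31e-16 and 0.0035), though in KO:HOM not with all 48 livers (adjusted p = 0.199). Arl4c, a small GTPase, rose like Abcg1, by 2.28 ± 0.29 and 1.55 ± 0.27 (adjusted p = 4.51e-09 and 5.29e-05). Of 12 receptors and co-regulators, 7 fell in DN:HOM, a share close to the 59.1% of all genes called there, and 4 fell in KO:HOM, beside 19.4% of all genes. None rose in either. Nr1h3, the altered gene itself, is among those that fell in both lines, so that its fall in KO:HOM was set by the design. Nr1h2, the gene of LXRβ, was at 0.12 ± 0.07 in DN:HOM (adjusted p = 0.153) and 0.05 ± 0.07 in KO:HOM (adjusted p = 0.684), and Rxra, its partner, fell by 0.59 in DN:HOM (adjusted p = 3.31e-06). In DN:HET, where 2.30% of all genes were called, 1 gene of these 5 lists other than the exporters passed, the LXR target Tnfaip3, an inhibitor of inflammatory signalling, at 1.21 ± 0.34 (adjusted p = 0.0448, and 0.34 with adjusted p = 1 for all 48 livers). Tnfaip3 was at 19.3 and 23.3 CPM in DN:HET 4 and 22. It was at 4.48 to 6.74 CPM in the other DN:HET livers, against 2.15 to 4.78 in DN:WT. In KO:HET, where 0.0191% were called, Nr1h3 itself was the only gene of these lists that passed, at -0.67 ± 0.06 (adjusted p = 5.99e-11).

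**Figure D5:**
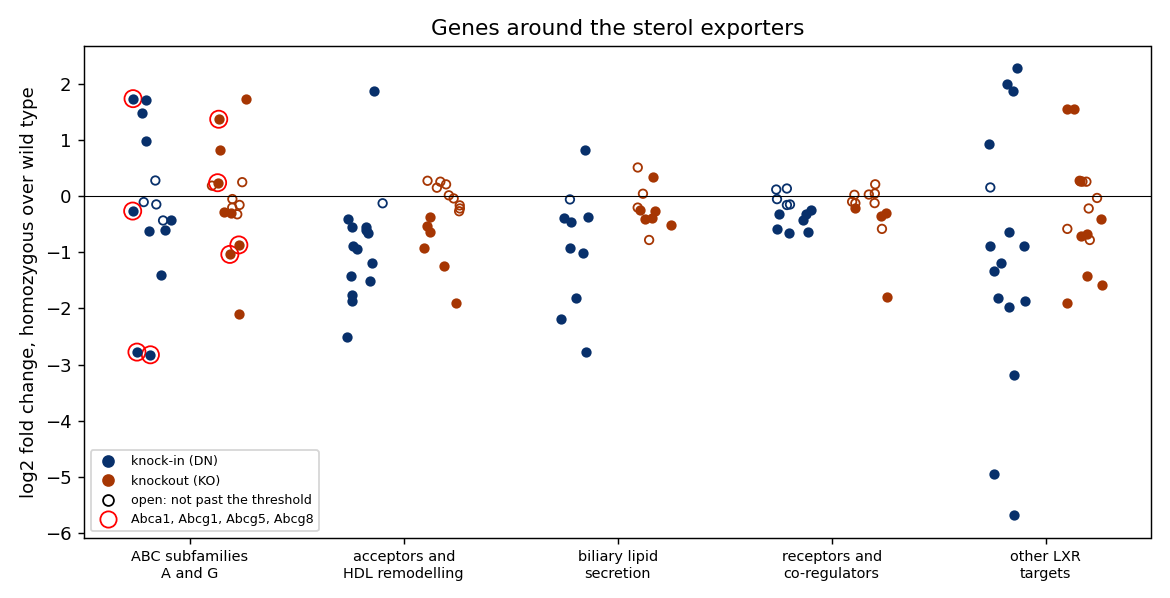
Log2 fold change of homozygous over wild-type livers (y axis) for each tested gene of 5 lists (x axis), knock-in in blue and knockout in brown. Filled points passed the adjusted threshold, and red rings mark Abca1, Abcg1, Abcg5 and Abcg8. The ringed pair near -2.8 is lower than the other tested members of ABC subfamilies A and G in DN:HOM.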

How the data were processed

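Livers of 48 mice were sequenced as stranded poly(A) RNA libraries, and the authors aligned reads with STAR 2.5.0a to GRCm39 with an Ensembl annotation. The deposited values are raw counts per gene, unstranded and for each strand, and the column matching the strand of the genes was used (6.97 to 8.62 times the reads of the opposite strand). Rows that name no gene, 24.0 to 35.0% of the reads in that column, were set aside. Symbols, loci and exon lengths came from GENCODE M39, a later release on the same build, for 54749 of 55416 identifiers, and sequences from that genome. No 2 livers held identical counts.

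Changes were fitted with edgeR 4.0.16 (R 4.3.3) with filterByExpr, TMM scaling, 6 group means and the quasi-likelihood test over 46 livers. The study used DESeq2, run here (1.42.0) as an alternative. For log2 CPM, 2 was the prior count. Exact permutation tests used Python. The procedures were tested on simulated data. Animals were the replicates. Alternatives were another liver set, tool, scaling, filter, strand setting and sample set, and leaving out each liver. The rule named the exporters, Nr1h3, 2 to 6 genes of each functional list and, for each exporter, the 5 most alike by each measure. More LXR targets are named, for their place in several lists or a heterozygous call. Marker lists are given as counts, and Lyz2, Gpnmb, Clec4f and Timd4 were named outside the rule. Genes and lists were chosen with earlier results of these data known.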

Additional observations from a re-analysis of the deposited data

Results flagged for a closer look

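In 3 of the 24 sets of livers examined, 1 for each exporter and group, a single liver lay far from the others relative to the spread of its group (Dixon's test at the 95% level, which chance alone passes in about 1 in 20 sets). DN:HOM 34 had 32.2 CPM of Abcg1, above the other DN:HOM livers. KO:HET 15 had 205 CPM of Abcg5 and 198 CPM of Abcg8, below the other KO:HET livers for both genes of the pair. The effect of the homozygous allele differed between the knock-in and the knockout line, by a direct edgeR test of the difference, for Abca1 (-0.50 on the log2 scale, adjusted p = 0.000176), Abcg5 (-1.79, adjusted p = 5.7e-09) and Abcg8 (-1.91, adjusted p = 3.17e-09). The difference with all 48 livers was -0.89 for Abcg5 (adjusted p = 0.191) and -1.01 for Abcg8 (adjusted p = 0.14), and with library size alone it was -0.19 for Abca1 (adjusted p = 0.112). The lines also differ in site and colony, which cannot be told apart from the allele.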

How the results depend on the processing

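No paired analysis was possible because the groups compared within a line share no animal number, and equal numbers in both lines are different animals. Unless listed here, the changes of the 4 exporters that passed the threshold kept their direction and still passed under every alternative run, and those that had not passed still did not. The cause of each change listed was not tested. Of the values past the threshold under neither setting, some changed sign. With all 48 livers Abcg1 went from 0.37 to -0.17 in the difference of homozygous effects and from -0.18 to 0.22 in DN:WT against KO:WT (-0.03 and 0.22 with DN:WT 10 alone added). With library size alone Abca1 turned to 0.0093 in the difference of heterozygous effects, and r of Abca1 and Abcg1 to 0.234. Leaving out 1 liver at a time, Abcg1 ran from -0.04 to 0.31 and Abcg5 from -0.04 to 0.10 in KO:HET against KO:WT, and Abca1 from -0.07 to 0.01 in the difference of heterozygous effects.

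All 48 livers: in DN:HET against DN:WT, Abcg5 -0.60 and Abcg8 -0.40 no longer passed, nor did Abcg8 at -0.86 in KO:HOM against KO:WT and -0.97 against KO:HET, or the differences of homozygous effects for Abcg5 (-0.89) and Abcg8 (-1.01). Genes called went from 361 to 39 (DN:HET), from 3048 to 2016 (KO:HOM), from 5456 to 1636 (difference of homozygous effects) and from 1663 to 737 (KO:HOM against KO:HET). The permutation differences that no longer passed were -0.20 for Abca1 in DN:HOM and 0.47, -0.36 and -0.15 for Abcg1, Abcg5 and Abcg8 in DN:HET, and the within-group r of Abcg1 passed with Abcg5 (-0.62) and Abcg8 (-0.61). Library size alone: Abca1 turned to 0.16 in DN:HOM against DN:WT and 0.032 against DN:HET, did not pass in the difference of homozygous effects (-0.19), and passed at 0.23 in KO:HOM against KO:HET; r of Abca1 and Abcg5 was 0.303; Abcg5 in DN:WT against KO:WT passed at 0.41. Other settings in DN:HET against DN:WT: Abcg1 passed with DESeq2 (0.82) and the line alone (0.82), and Abcg8 did not with only the compared groups (-0.56). Genes called there were 617 (DESeq2), 5 (compared groups) and 239 (line alone). In KO:HET against KO:WT they were 10 with DESeq2, 8 without a filter and 1 with only the compared groups, against 3.

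Settings chosen after seeing the data: with DN:WT 10 added, DN:HET gave Abcg5 -0.61, Abcg8 -0.40 and 61 genes, the difference of homozygous effects 3529 and KO:HOM against KO:HET 1071 genes. With DN:HOM 12 added, DN:HET gave Abcg5 -0.78 (adjusted p = 0.161), Abcg8 -0.58 (adjusted p = 0.42) and 202 genes. Without DN:HET 4 and 22 it gave Abcg5 -0.69, Abcg8 -0.50 and 2 genes, and KO:HET against KO:WT 5. Leaving out 1 liver at a time, DN:HET ranged from 0.62 to 0.90 for Abcg1, from -0.63 to -0.51 for Abcg8 and from 21 (without DN:HET 22) to 629 genes (without DN:HET 8). Its count was 29 without DN:HET 4, 562, 576 and 601 without DN:HET 1, 14 and 20, and 159, 238, 158, 181 and 103 without DN:WT 2, 5, 7, 21 and 28. Without 1 liver, KO:HET ranged from 3 to 6 genes (5 without KO:HET 9 and 6 without KO:HET 15). Depth limits Abcg1 most, at 24 reads in the poorest liver.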
